A study of Homo sapiens with 6 samples.

Results

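The cytosolic ribosomal protein genes were examined in SiHa PR cells, the parental cells of a human cervical carcinoma line, with and without P4HA3 overexpression. Genes were members when their identifier matched a protein-coding symbol of the RPL or RPS series, RPLP0 to RPLP2 or RPSA, which gave 84 of the 60664 genes in the table. Of these, 82 had enough counts to be tested, while RPL3L and RPL10L did not. Messenger RNA was sequenced in 3 control samples and in 3 samples overexpressing P4HA3, the alpha subunit III of collagen prolyl 4-hydroxylase. The sources name a lentiviral P4HA3 construct and a vector control for this line, and the control samples themselves are labelled only as SiHa PR. They state neither clone nor pool, nor whether the samples of a group came from separate cultures, so p-values measure the spread between these samples, which may be technical. The growth protocol in the labels describes smooth muscle of the uterus, whereas the cell line given there and the study itself name SiHa cells, and this identity was used.

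The cytosolic ribosome joins a small 40S subunit, which reads the mRNA, and a large 60S subunit, which forms the peptide bond. Its proteins are made in nearly equal numbers, and their mRNAs are among the most abundant in dividing cells. Most of these mRNAs begin with a cytosine followed by a run of pyrimidines, the terminal oligopyrimidine (TOP) motif, through which mTORC1 and LARP1 adjust their translation and stability. Several members have a paralog that can take the same place in the ribosome.

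The start of transcription was read from RefSeq sequence on GRCh38, which held 67 of the 84 members. A start with C at the first base and pyrimidines at the next 4 was found at 43 of the 67 (64.2%), against 4.04% of 27305 promoters of all genes and 7.25% of 69 promoters of mitochondrial ribosomal protein genes. The windows below show 15 bases before and 15 bases from the annotated start, with the pyrimidine run that opens the RNA in capitals. They were chosen because RPS3 and RPS14 carry results below, RPS6 and RPLP1 are textbook TOP mRNAs, and RPL26 and RPS27 have paralogs without the motif at the annotated start.
RPS3, chr11:75399503-75399532, plus strand: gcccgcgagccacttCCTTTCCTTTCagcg
RPS14, chr5:150449725-150449754, minus strand: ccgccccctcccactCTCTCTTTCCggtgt
RPS6, chr9:19380222-19380251, minus strand: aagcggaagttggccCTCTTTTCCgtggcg
RPLP1, chr15:69452803-69452832, plus strand: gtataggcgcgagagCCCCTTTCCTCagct
RPL26, chr17:8383179-8383208, minus strand: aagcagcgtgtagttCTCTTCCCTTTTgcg
RPL26L1, chr5:172958714-172958743, plus strand: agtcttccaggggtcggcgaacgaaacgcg
RPS27, chr1:153990747-153990776, plus strand: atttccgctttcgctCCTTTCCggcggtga
RPS27L, chr15:63157463-63157492, minus strand: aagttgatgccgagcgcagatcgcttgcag
Annotated starts can lie a few bases from the used one, and a run of this kind began within 10 bases of the start in 83.6% of the members and in 33.3% of all genes. The promoters of members also held TTCCGG, the core of an ETS-type motif, on either strand in 55.2% of cases, against 17.6% of all genes and 56.5% of the mitochondrial ribosomal protein genes. TATAA lay 15 to 40 bases before the start in 11.9% of the members and 4.22% of all genes.

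The libraries held between 21773488 and 24939948 counts, and 15130 genes were tested. P4HA3 had 86, 62 and 93 counts in the control samples and 45042, 44775 and 49097 with overexpression, as the labels state. Epithelial markers summed to between 10800 and 13100 CPM (counts scaled to a common library size) in the 6 libraries. Of 7 tested, 3 were lower with overexpression (CDH1, KRT17 and KRT18), where 11.4% of all genes were. With the GC and length trend removed, as described below, CDH1 and KRT18 stayed called in edgeR's quasi-likelihood test. KRT17 then had a log2 fold change of -0.069 (adjusted p = 0.307), and KRT7 was called higher, at 0.337 (adjusted p = 0.00161). Of all genes, 10.7% were then higher and 7.77% lower. The smooth muscle markers summed to between 169 and 196 CPM, with 1 of 3 tested lower (MYLK) and CNN1 at or under 3 counts. With the trend removed, MYLK stayed lower and SMTN was called higher in edgeR's test, at 0.291 (adjusted p = 0.00214). The fibroblast markers reached 124 to 126 CPM in control cells and 94.4 to 123 CPM with overexpression, the endothelial markers 2.57 to 3.47 and 1.33 to 1.62 CPM, and the leukocyte markers 91.6 to 110 and 35.3 to 51.1 CPM. PECAM1 made up nearly all of the endothelial sum and CD14 nearly all of the leukocyte sum. Each was the only gene of its list with enough counts to be tested, and each was lower with overexpression in edgeR's quasi-likelihood test. Their log2 fold changes were -1.034 (adjusted p = 0.00494) and -1.147 (adjusted p = 0.000757), and none of the 5 fibroblast markers was called. With the trend removed, LUM of the fibroblast markers was called lower, at -0.402 (adjusted p = 0.0152). CDH5, VWF, KDR, PTPRC and CD3E were at or under 3 counts, and the part of these markers in the results was not tested. In bulk RNA, fewer cells of a type and less RNA per cell cannot be told apart.

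The libraries differed in how counts followed GC content, and this touches every result below. Spearman's rho between a gene's GC content and its log2 departure from the 6-library mean was 0.52, 0.59 and 0.13 in the control samples and -0.05, -0.59 and -0.44 with overexpression. These are descriptions across genes, which are not independent replicates. The main comparisons are therefore given as measured and, where stated, with the trend on GC content and transcript length of each library removed, a step that takes away any difference that follows them, whether technical or not.

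Ribosomal protein mRNAs took overlapping shares of the library in both groups. The share was 5.01%, 4.88% and 4.66% of counts in the control samples, a mean of 4.85% ± 0.179 (SD, n = 3). With overexpression it was 4.93%, 4.19% and 4.48%, a mean of 4.53% ± 0.374 (SD, n = 3). The groups overlapped, because the first overexpression library lay above 2 of the 3 control libraries, and the second was the lowest of all. RPS2, a protein of the mRNA entry channel, supplied 7.48% of these counts, and RPLP0, the base of the stalk that recruits translation factors, supplied 4.92%.

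Gene by gene, very few members passed the test. By the quasi-likelihood test of edgeR, adjusted by Benjamini-Hochberg over the 15130 genes, 1 member was higher and 2 were lower at an adjusted p under 0.05, whereas 9.36% of all genes were higher and 11.4% lower. With the GC and length trend removed, 0 were higher and 3 lower, against 10.7% and 7.77% of all genes. Of the 82, RPS3 alone was called in both of these fits. At an unadjusted p under 0.05 the members numbered 13, against 38.7% of all genes. The estimates ran from -0.335 to 0.294 on the log2 scale, with a median standard error of 0.083.

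**Figure D1:**
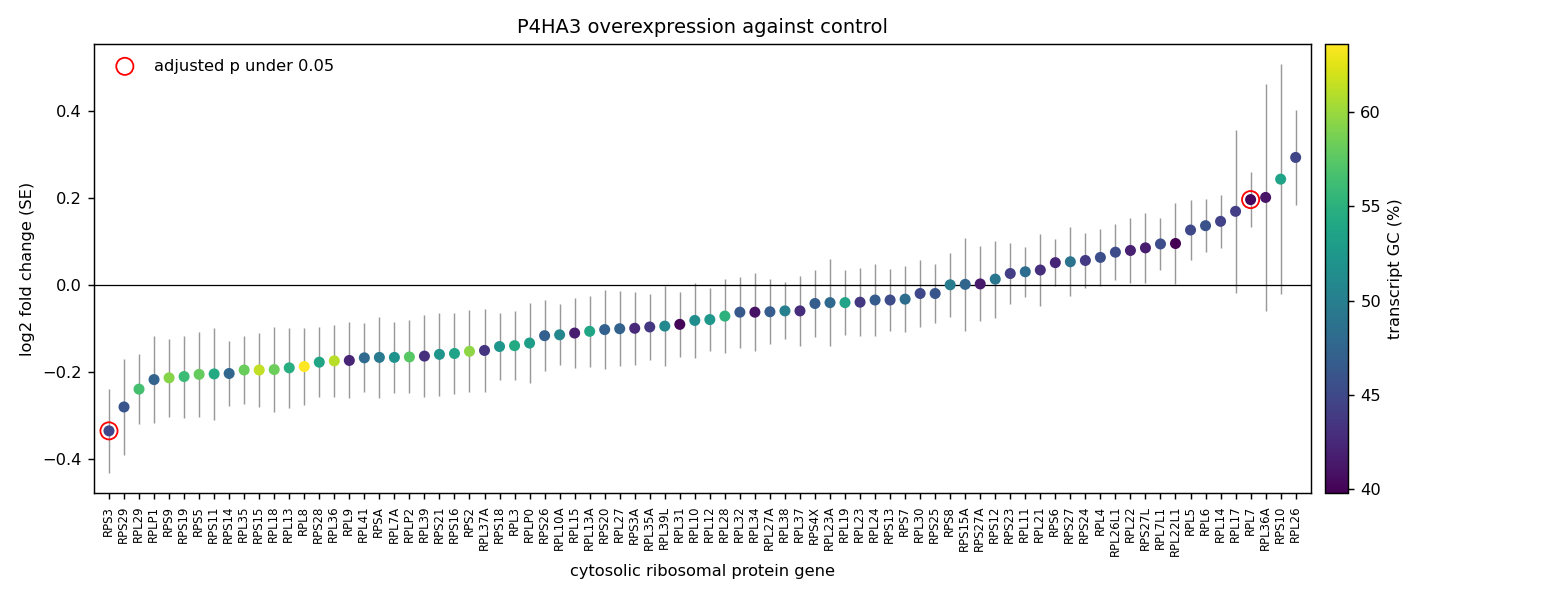
Log2 fold change of 80 of the 82 tested ribosomal protein genes with P4HA3 overexpression against control, ordered by size, with the standard error as a bar and the GC content of the canonical transcript as colour. Most points lie between -0.3 and 0.3 and 56 lie below 0, with the GC-rich genes on the left. Red rings mark RPS3 and RPL7.

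RPS3 had the largest estimated fall of the members. It encodes a protein at the mRNA entrance of the 40S subunit that also takes part in DNA repair, and it lies at chr11:75399515-75422280 on the plus strand. Its level was 1071, 1013 and 895 CPM in the control samples and 898, 706 and 758 CPM with overexpression. The first overexpression library lay just above the lowest control, while the other 2 lay below every control. The log2 fold change was -0.335 (SE 0.096, adjusted p = 0.0353), and -0.384 (SE 0.089, adjusted p = 0.0128) with the trend removed. No other annotated gene overlapped its coding exons on the same strand, and none of its coding 100-base stretches recurred elsewhere among annotated transcripts. Pseudogenes named after RPS3 held 0.356% of its counts. Without control replicate 1, control replicate 2 or overexpression replicate 3, the adjusted p was 0.144, 0.141 or 0.121, and the log2 fold change stayed below 0.

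RPL7 was called as measured and not with the trend removed. This gene, for a 60S protein of low GC content (40.3%), was 296, 282 and 304 CPM in the control samples and 359, 315 and 336 CPM with overexpression, so that the groups did not overlap. Its log2 fold change of 0.197 (SE 0.063, adjusted p = 0.0497) became 0.072 (adjusted p = 0.433). Of its coding 100-base stretches, 93.5% also occurred in other transcripts, mostly processed pseudogenes, so reads may have been shared. Leaving out any 1 library other than overexpression replicate 2 ended the call, with an adjusted p of 0.15, 0.176 and 0.0518 without control replicates 1, 2 and 3 and of 0.0679 and 0.131 without overexpression replicates 1 and 3.

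RPS14 and RPL9 were not called as measured in all 6 libraries and were called with the trend removed. RPS14, a 40S platform protein at chr5:150442635-150449739 (minus strand), was 619, 611 and 575 CPM in the control samples and 580, 487 and 502 CPM with overexpression. Its log2 fold change was -0.203 (adjusted p = 0.0727), and -0.205 (adjusted p = 0.0327) with the trend removed. RPL9, a 60S protein near the base of the stalk at chr4:39452587-39458931 (minus strand), was 304, 261 and 269 CPM in the control samples and 280, 230 and 231 CPM with overexpression, with log2 fold changes of -0.173 (adjusted p = 0.171) and -0.258 (adjusted p = 0.0389). In both, the first overexpression library lay within the control range and the other 2 below it. With GC content and length of the coding sequence in place of the transcript, RPL9 stayed called (adjusted p = 0.0209) and RPS14 did not (adjusted p = 0.33). Without overexpression replicate 1, both were called as measured (adjusted p = 0.00422 for RPS14 and 0.0101 for RPL9).

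**Figure D2:**
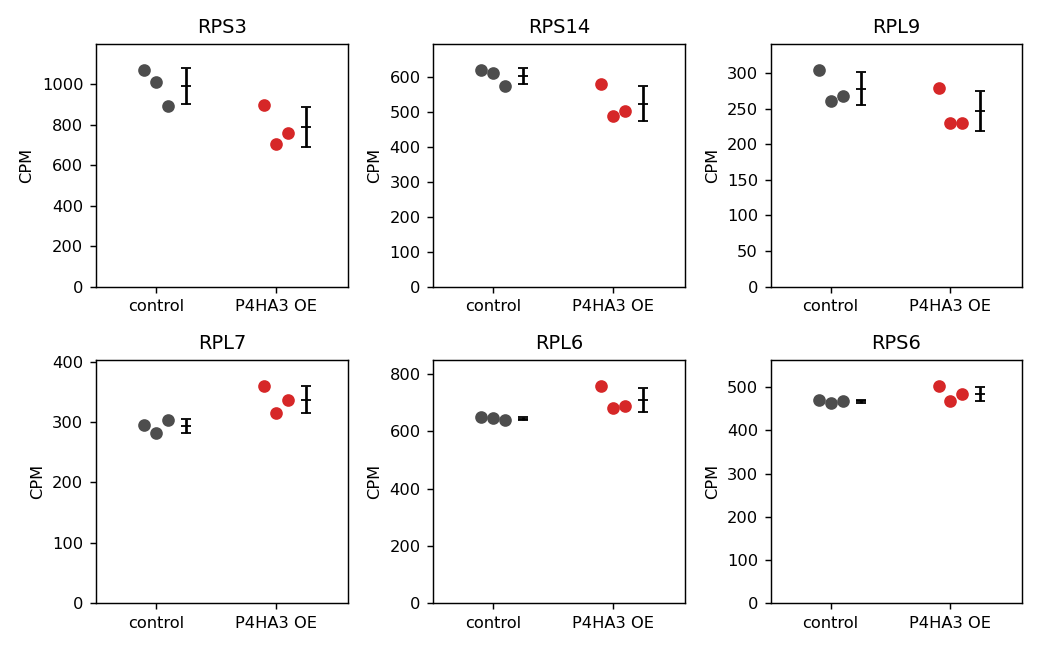
CPM of 6 ribosomal protein genes in each library (points), with the mean and SD of the 3 libraries of a group beside them, on axes that start at 0. RPS3, RPS14 and RPL9 are lower in overexpression libraries 2 and 3, RPL7 and RPL6 are higher in all 3, and RPS6 is nearly level.

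Few members had groups that did not overlap. In CPM, 4 members were higher in every overexpression library than in every control library (RPL6, RPL7, RPL14 and RPL26) and 2 were lower, among them RPS29, against 19.7% and 20.4% of all genes tested. RPL6, a 60S protein, was 649, 647 and 640 CPM in the control samples and 758, 681 and 690 CPM with overexpression (log2 fold change 0.137, SE 0.061, adjusted p = 0.123). RPS29, a zinc-binding 40S protein, was 151, 138 and 133 CPM in the control samples and 131, 93 and 124 CPM with overexpression (log2 fold change -0.28, SE 0.11, adjusted p = 0.0908). Neither passed the main test on all 6 libraries, and with the trend removed they had 0.119 (adjusted p = 0.0662) and -0.281 (adjusted p = 0.0575). Without overexpression replicate 1, RPS29 was called lower as measured in edgeR's test (adjusted p = 0.0118), as were 17.6% of all genes.

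The members as a list lay slightly below 0, and the GC-rich ones lay lowest. The median log2 fold change was -0.085 over the 82 members and 0.0056 over all genes tested, and 58 of 82 (70.7%) lay below 0 against 49.3% of all genes. It was -0.075 over 50 proteins of the 60S subunit and -0.109 over 32 of the 40S subunit. The 43 members with a TOP start had a median of -0.096 and the 23 tested members without one at the annotated first base -0.062. Some of the latter have such a run within 10 bases, and members without a RefSeq start are in neither group. With the trend removed, the median of all members was -0.03, against 0.02 over all genes, and it was -0.024 for the 60S and -0.049 for the 40S subunit. It was then -0.03 with a TOP start and -0.037 without one.

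Fold change and GC content ran together among the members as among all genes. Spearman's rho was -0.58 over the 82 members and -0.58 over 15107 genes, and -0.69 over the members with GC content of the coding sequence, a description across genes of the same 6 libraries. In the 27 members of highest GC content (51.5% to 63.6%), 26 lay below 0 and the median was -0.166. In the 28 members of lowest GC content (39.8% to 45.2%) the median was 0.015, and 13 lay below 0. With the trend removed, these medians were -0.0022 and -0.058, so the order turned round. The rho of the members was then 0.35, and 0 over all genes. Against GC content of the coding sequence, the rho of the members was 0.08 after the same removal. It was 0.29 when the trend on GC content and length of the coding sequence was removed instead.

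**Figure D3:**
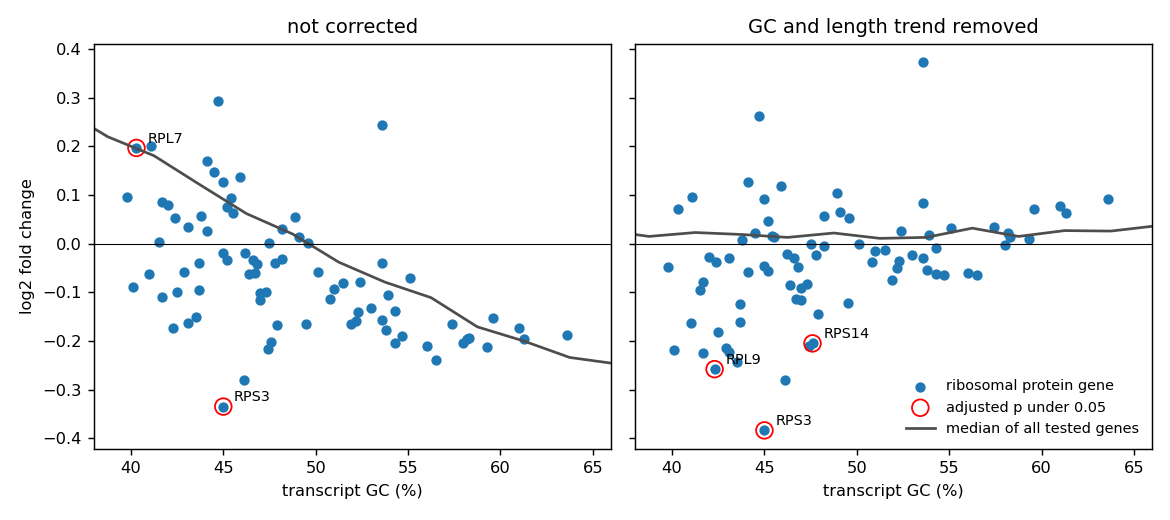
Log2 fold change of 80 of the 82 tested members (points) against the GC content of the canonical transcript, as measured (left) and with the GC and length trend of each library removed (right), with the median of all tested genes in bins of GC content as a line and the called members ringed. On the left the members follow the downward line, mostly from below at low GC content. On the right the line is flat and RPS3, RPL9 and RPS14 are ringed.

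The median also rested on single libraries. The median departure of the members from the 6-library mean was 0.093, 0.061 and -0.022 on the log2 scale in the control samples. With overexpression it was 0.105, -0.175 and -0.061, so the first library lay above every control and the second was the lowest, with 58 of the 82 members at their minimum there. The median coefficient of variation of a member was 6.08% in the control samples and 10.5% with overexpression. Without overexpression replicate 1, 34 members were lower (17.6% of all genes were) with a median of -0.162. Without overexpression replicate 2, 1 was lower (8.59% of all genes) and 2 higher (5.75%), with a median of -0.014. Without control replicate 1, control replicate 2 or overexpression replicate 3, 0 members were called in edgeR's test, where 5.09%, 3.47% and 5.89% of all genes were. With the trend removed as well, 19 members were lower without overexpression replicate 1 (10.8% of all genes), and again 0 were called without control replicate 1 (9.79%), control replicate 2 (9.47%) or overexpression replicate 3 (11%).

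**Figure D4:**
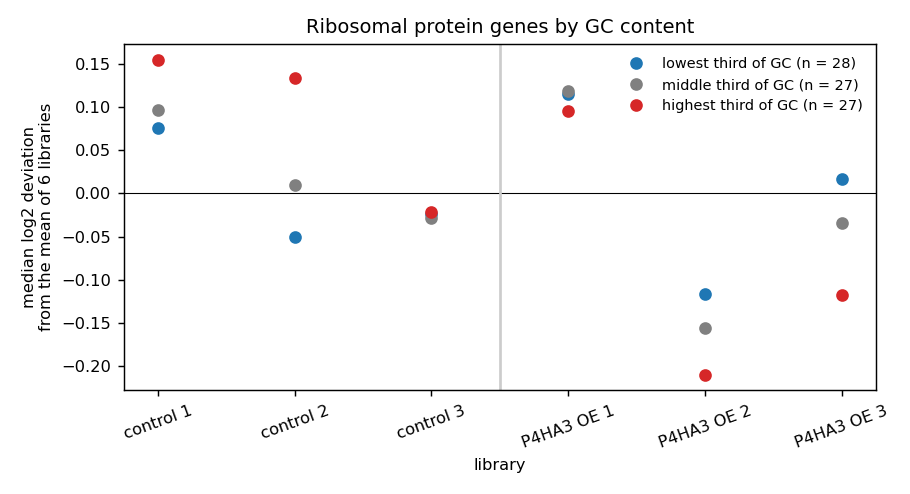
Median log2 departure of the members from the 6-library mean, in each library, for the 28 members of lowest, the 27 of middle and the 27 of highest GC content. All 3 groups of members lie near 0.1 in overexpression library 1 and are lowest in overexpression library 2. The GC-rich members are highest in control libraries 1 and 2.

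Members picked for their known roles did not pass the main test on all 6 libraries. RPS6, whose phosphorylation by S6 kinase is a standard readout of mTORC1, was 470, 464 and 469 CPM in the control samples and 503, 469 and 484 CPM with overexpression (log2 fold change 0.052, SE 0.054, adjusted p = 0.5). RPL11 and RPL5, which with 5S rRNA can bind MDM2 and so restrain it, had log2 fold changes of 0.031 (SE 0.058, adjusted p = 0.719) and 0.127 (SE 0.068, adjusted p = 0.193). RPS19, mutated in Diamond-Blackfan anaemia, had -0.21 (SE 0.094, adjusted p = 0.129), and RPS27A, which is made as a fusion with ubiquitin, had 0.003 (SE 0.086, adjusted p = 0.98). RPSA, also known as a laminin receptor, had -0.166 (SE 0.094, adjusted p = 0.213). Among the stalk proteins, RPLP0, RPLP1 and RPLP2 had -0.133, -0.217 and -0.165, with adjusted p of 0.302, 0.138 and 0.171. RPL3, at the peptidyl transferase centre, had -0.139 (adjusted p = 0.219), and RPL10, a late-joining 60S protein, had -0.081 (adjusted p = 0.517). With the trend removed, RPS6, RPS27A and RPLP2 changed sign, to -0.038, -0.096 and 0.034. RPL11 and RPL5 then had 0.056 and 0.091, RPS19 and RPSA -0.06 and -0.121, RPLP0 and RPLP1 -0.024 and -0.21, and RPL3 and RPL10 -0.009 and -0.012. None of these passed the test in edgeR, with adjusted p between 0.0843 for RPLP1 and 0.915 for RPL10. Without overexpression replicate 1, RPS19, RPSA, RPLP0, RPLP1, RPLP2, RPL3 and RPL10 were called lower as measured, as were 17.6% of all genes. Their adjusted p in edgeR's test lay between 0.00474 for RPS19 and 0.0294 for RPLP2, while RPS6, RPL5, RPL11 and RPS27A were not called. With the replicate number as a block, RPS19 and RPLP1 were lower (adjusted p = 0.0366 and 0.0299).

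Paralogs were set against the usual proteins by mRNA level, which does not show whether a paralog enters the ribosome. Per kilobase of coding sequence, RPL22L1 stood at 27.1% ± 0.644 of RPL22 in control cells and 27.4% ± 0.743 with overexpression (SD, n = 3), with RPL22 also under another gene in part. RPS27L stood at 24.2% ± 2.94 and 24.7% ± 1.2 of RPS27, RPL39L at 15.3% ± 0.828 and 16.1% ± 0.619 of RPL39, and RPL7L1 at 55.8% ± 2.62 and 52.1% ± 4.45 of RPL7. All the coding 100-base stretches of RPL39 and RPS27 also occur in other transcripts, and pseudogenes named after RPL39, RPL22, RPL7 and RPS27 held 70.8%, 64.4%, 28.9% and 15.7% of the counts of their parents, so reads may have been shared and these percentages are uncertain. None of the 8 genes but RPL7 passed the test in edgeR on all 6 libraries. RPL39 was called lower without overexpression replicate 1 (adjusted p = 0.00455), as were 17.6% of all genes. RPL3L, which replaces RPL3 in striated muscle, and RPL10L, known from the testis, were at 1 to 6 and 0 to 2 counts per library. RPL26L1 was 523% ± 37.2 of RPL26 in control cells and 452% ± 39.3 with overexpression, but most of the coding exons of RPL26 lie under another gene, as described below. Pseudogenes named after RPL26 held 141% of its counts.

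The counts of 7 members carry a limit of the annotation. More than 50% of the coding exons of these 7, which include RPL17, RPL36A, RPS10, RPL26, RPL22 and RPS15A, lie under another annotated gene on the same strand, and those other genes were listed at 0 counts in every library. RPL17, with 100% under the readthrough gene RPL17-C18orf32, had 24 to 41 counts per library. RPL36A, with 94.3% under RPL36A-HNRNPH2, had 15 to 24 counts, and RPS10, with 92.1% under RPS10-NUDT3, had 11 to 18. Pseudogenes named after RPL36A held 11000% of the counts of their parent, and those named after RPS28 held 181%. For RPL17, RPS10 and RPL26 the figures were 2220%, 523% and 141%. Over all members the pseudogene counts came to between 6.57% and 6.78% of the member counts. Of 108 pseudogenes tested, 1 was higher and 3 lower, with a median log2 fold change of -0.048. After removal of the trend 3 were higher and 2 lower, and the median turned to 0.033. Of all genes 9.36% were higher and 11.4% lower, and 10.7% and 7.77% with the trend removed. In the absence of control replicate 1, control replicate 2 or overexpression replicate 3, 0 pseudogenes were called in edgeR's test, where 5.09%, 3.47% and 5.89% of all genes were. In the absence of overexpression replicate 1, 2 of 111 pseudogenes were higher and 18 lower, against 18.3% and 17.6% of all genes.

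**Figure D5:**
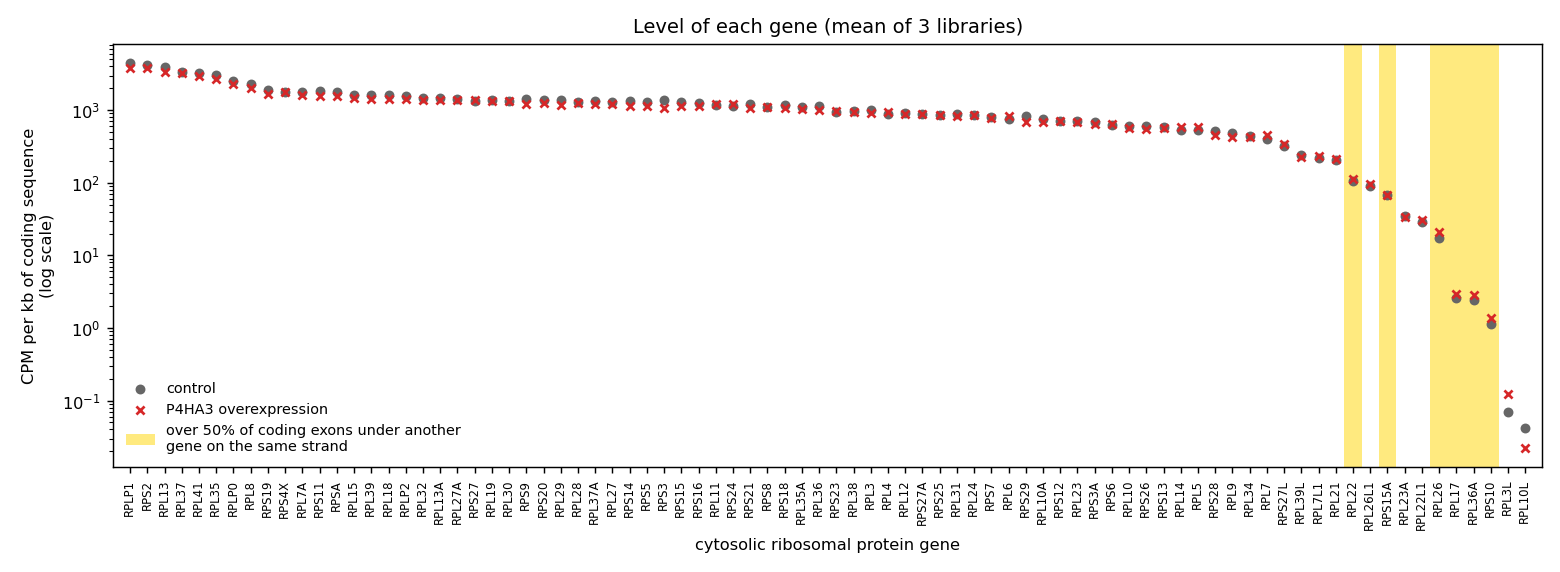
Mean level of 82 of the 84 members in control and P4HA3 overexpression samples, in CPM per kilobase of coding sequence on a log axis, ordered by level. Members with more than 50% of their coding exons under another gene on the same strand are shaded, and most lie at the low end. The symbols of the groups nearly coincide for most members.

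Among the other members, RPLP1 (4431 ± 373 CPM per kilobase of coding sequence in control cells, SD, n = 3), RPS2 (4214 ± 323) and RPL13 (3870 ± 246) were the most abundant, and the first and second of these lay within each other's spread. Per kilobase of the canonical transcript, the highest 5 were RPS2, RPL35, RPLP0, RPL7A and RPL8, and only 1 of these was among the highest 5 per kilobase of coding sequence. RPS2, RPL35, RPL7A and RPL8 had log2 fold changes of -0.152, -0.195, -0.166 and -0.187, and with the trend removed 0.072, 0.022, -0.075 and 0.092, so that the sign turned for all but RPL7A. None of them passed the test either way on all 6 libraries. Without overexpression replicate 1, all of them were called lower as measured, as were 17.6% of all genes.

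A further 10 lists held genes that build, regulate or resemble the ribosome, and short nuclear subunits of oxidative phosphorylation. Of their 296 tested genes, 43 were higher and 16 lower, and the oxidative phosphorylation subunits supplied 7 of the 16. List counts from all 6 libraries compare with 9.36% higher and 11.4% lower of all genes, or 10.7% and 7.77% with the trend removed. Counts without 1 library, here and for the lists below, have other shares of all genes, higher and lower. Without control replicates 1, 2 and 3 these were 1.49% and 3.6%, 1.06% and 2.41%, and 9.08% and 11.7%. Without overexpression replicates 1, 2 and 3 they were 18.3% and 17.6%, 5.75% and 8.59%, and 1.79% and 4.1%. Of 48 tested ribosome assembly factors, 14 (29.2%) were higher and 0 lower in edgeR's test, with a median log2 fold change of 0.13. The same numbers, 14 and 0, were found with the trend removed. With GC content and length of the coding sequence in place of the transcript they were 4 and 0, against 13.1% and 9.57% of all genes. Without control replicate 1, control replicate 2 or overexpression replicate 3, 1 was higher, where 1.49%, 1.06% and 1.79% of all genes were. Leaving out control replicate 3 gave 12 higher and 2 lower, and overexpression replicate 2 gave 10 and 0. Without overexpression replicate 1, 20 were higher and 7 lower, against 18.3% and 17.6% of all genes. LTV1, a maturation factor of the 40S subunit, rose by 0.508 on the log2 scale (adjusted p = 0.03), and UTP15, of the small subunit processome, by 0.404 (adjusted p = 0.0152). After removal of the trend LTV1 had 0.402 (adjusted p = 0.04) and UTP15 0.188 (adjusted p = 0.0539).

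Of 21 tested translation factors with TOP mRNAs, 6 were higher and 0 lower, with a median of 0.125, and 7 and 0 with a median of 0.017 with the trend removed. NPM1, a nucleolar chaperone, was 488, 466 and 488 CPM in the control samples and 619, 624 and 626 CPM with overexpression (log2 fold change 0.375, adjusted p = 0.00242). EIF3E, a subunit of the initiation factor that binds the 40S subunit, was 73.8, 71.7 and 77.4 CPM in the control samples and 92.1, 114 and 101 CPM with overexpression (0.462, adjusted p = 0.00494). Both stayed called with the trend removed. Of 32 other translation factors, 6 were higher and 0 lower, and 5 and 0 with the trend removed, with EIF4G2 and EIF1AX rising by 0.427 and 0.353 on the log2 scale. With the trend removed EIF1AX had 0.086 (adjusted p = 0.225). When control replicate 1, control replicate 2 or overexpression replicate 3 was left out, 2, 2 and 3 of the factors with TOP mRNAs were higher and 1 of the others. When overexpression replicate 1 was left out, these lists had 6 and 10 higher and 3 and 3 lower, and for overexpression replicate 2 they had 5 and 3 higher and 0 lower.

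Mitochondrial ribosomal proteins, a list of like size, had 9 higher and 3 lower of 77, with a median of -0.054, and 12 and 2 with a median of 0.013 with the trend removed. The short nuclear subunits of oxidative phosphorylation had 0 higher and 7 lower of 48, with a median of -0.102, and 1 and 8 with the trend removed. Leaving out control replicate 1, control replicate 2 or overexpression replicate 3, the first list had 2, 1 and 3 higher and 0 lower and the second had 0 called in edgeR's test. Without overexpression replicate 1, they had 11 and 0 higher and 21 and 20 lower, and without overexpression replicate 2, 10 and 2 higher and 2 and 2 lower. Without control replicate 3, the 2 lists had 8 and 0 higher and 8 and 8 lower. MRPL14 fell by 0.455 (adjusted p = 0.0113) and MRPL1 rose by 0.435 (adjusted p = 0.0146). MRPL50 rose by 0.342 and MRPL41 fell by 0.314, but with the trend removed MRPL1, MRPL50 and MRPL41 did not pass (adjusted p = 0.0555, 0.498 and 0.921). COX5B and ATP5F1D, subunits of complex IV and of ATP synthase, fell by 0.351 and 0.347, and ATP5F1D had -0.003 with the trend removed (adjusted p = 0.969). RNA polymerase I subunits and factors had 3 higher and 2 lower of 19, and 5 and 0 with the trend removed, with TAF1D and RRN3 rising by 0.424 and 0.321 and POLR2H and POLR1H having -0.315 and -0.307, the last 2 not called with the trend removed (adjusted p = 0.171 and 0.0645). The snoRNA host genes had 1 higher (SNHG1, 0.305) and 1 lower (SNHG15, -0.395) of 13, and 4 and 1 with the trend removed. Called in edgeR's test were 0 of the polymerase genes without control replicate 1, control replicate 2 or overexpression replicate 3, and 0, 0 and 1 of the host genes. The polymerase genes had 5 higher and 5 lower without overexpression replicate 1 and 3 and 1 without overexpression replicate 2.

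Of 19 mTORC1 and TOP mRNA regulators, 2 were higher and 3 lower, and 5 and 3 with the trend removed. Leaving out control replicate 1, control replicate 2 or overexpression replicate 3 gave 1 lower and 0 higher, overexpression replicate 1 gave 6 higher and 4 lower, and overexpression replicate 2 gave 0 and 2. DDIT4, an inhibitor of mTORC1 signalling, was 313, 319 and 300 CPM in the control samples and 201, 161 and 193 CPM with overexpression (log2 fold change -0.748, SE 0.079, adjusted p = 0.000664), and -0.559 with the trend removed. EIF4EBP1, which holds back the cap-binding factor, fell by 0.334 (adjusted p = 0.0156), and had -0.06 (adjusted p = 0.375) with the trend removed. MTOR rose by 0.194 (adjusted p = 0.0313) and LARP4 by 0.344 (adjusted p = 0.0417), of which LARP4 had 0.062 (adjusted p = 0.347) with the trend removed. Outside the symbol rule, FAU and RACK1, both part of the 40S subunit, had log2 fold changes of -0.227 (adjusted p = 0.104) and -0.133 (adjusted p = 0.195). In edgeR's test 2 of 15 ribosomal protein chaperones and quality control factors, HBS1L and BCCIP, were higher, and 3 with the trend removed, HBS1L not among them (adjusted p = 0.514). None of the 15 was called without control replicate 1, control replicate 2 or overexpression replicate 3, and 5 were higher and 2 lower without overexpression replicate 1.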

How the data were processed

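Poly-A RNA of SiHa PR cells was sequenced in strand-specific libraries by the dUTP method, in 3 control and 3 P4HA3 overexpression samples. The authors aligned the reads to GRCh38 with STAR according to their methods, while the submitters' processing notes name HISAT2, and HTSeq gave the reads of each gene. The deposited table holds raw counts, with nothing scaled. How strand and multiply matching reads were handled, and which tool versions ran, is not given in the sources used here.

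Symbols, positions, GC content and lengths came from GENCODE on GRCh38, a later release than the authors' annotation, and 60463 of 60664 identifiers matched. The test used edgeR 4.0.16 in R 4.3.3, with filterByExpr with a minimum count of 10, TMM factors, and the two-sided quasi-likelihood test with Benjamini-Hochberg adjustment over 15130 genes, called at an adjusted p under 0.05. CPM are TMM-normalized. In the correction for GC content and length, the deviation of each library from the mean of the 6 was fitted by smooth terms (mgcv 1.9.3) and entered as an offset. The common biological coefficient of variation was 7.7%, and counts of 3 or less were treated as the floor. DESeq2 1.42.0, limma 3.58.1, other scalings and filters, a replicate block and leaving out each library were alternatives. The tests were checked on simulated data. The simulated GC trends ran both ways within each group, unlike those of the data, so a trend shared by a group was not covered.

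Named genes were P4HA3, the called members, the 5 members highest and the 5 lowest per length, RPLP0, RPLP1, RPLP2, RPSA, RPS6, RPL5, RPL11, RPS19, RPS27A, the paralog pairs, and of each other list the 2 called genes with the largest rise and the 2 with the largest fall. RPS14, RPL9, RPL6, RPL14, RPL26 and RPS29 were named after their values were seen, for their calls or their groups. Some members that met the rule are counted but not reported here by name or plotted. The members and lists were chosen with earlier results of these data known. Start windows came from RefSeq. TTCCGG was searched on both strands, and TATAA and the TOP start on the strand of the gene. RPL7, RPL8, RPL30 and RPS20 lie on a chromosome whose sequence was not used here.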

Additional observations from a re-analysis of the deposited data

How the results depend on the processing

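RPS3 was below 0 in all 28 alternatives tried and passed the threshold in 21. Members called higher numbered 1 as reported and 0 under upper-quartile factors, with the members left out of the library sizes, scaled to the total of the members, with limma-voom, with at least 10 counts in every library, with each GC correction of all 6 libraries without a block and at an adjusted p under 0.01, and 4 with the length correction alone (13.7% of all genes). Members called lower numbered 2 as reported. The count was 0 when scaled to the total of the members (1.53% of all genes) or at an adjusted p under 0.01 (3.35%). It was 5 with DESeq2 (13.1% of all genes) and 13 without a filter on low counts (7.63%). With the GC (6.49%) or the length correction (12.1%) alone it was 1. The median of the members was 0.0254 when scaled to their own total, which by construction sets their sum level and moved the median of all genes to 0.123. Leaving out 1 library gave between 0 and 2 higher, between 0 and 34 lower and a median between -0.162 and -0.0137. With the GC and length correction as well, it gave 0 or 1 higher, between 0 and 19 lower and a median between -0.0771 and 0.000532, above 0 without overexpression replicate 2, and RPS27A had -0.2 (adjusted p = 0.0197) without overexpression replicate 1. The cause was not tested. The correction by coding GC content and coding length, added after seeing the data, gave 0 higher and 2 lower (13.1% and 9.57% of all genes). Over the other lists together, 43 genes higher and 16 lower as reported became 3 and 1 when scaled to the members' total. Of all genes, 0.991% and 1.53% were called there. Higher calls numbered 68 with the length correction (13.7% of all genes). Lower calls numbered 28 without a filter (7.63% of all genes), 9 with the GC correction (6.49%) and 8 with the coding correction (9.57%). Leaving out 1 library gave between 5 and 64 higher and between 1 and 68 lower. The shares of all genes were then 1.06% to 18.3% higher and 2.41% to 17.6% lower. With the GC and length correction it gave 28 to 60 and 4 to 42 (6 without control replicate 2 or overexpression replicate 3). Here 5.48% to 12.9% of all genes were higher and 3.99% to 10.8% lower. With that correction MRPL41 turned to 0.007, also with the trend taken from genes outside the members or with the block, and to between 0.01 and 0.032 without 1 library (0.01, 0.01, 0.012, 0.011 and 0.032). ATP5F1D turned to 0.01, 0.027 and 0.016 without control replicate 2 and overexpression replicates 1 and 3, and HBS1L to -0.001 without overexpression replicate 1. P4HA3 kept a log2 fold change between 9.06 and 9.38. Samples shared only a replicate number: their deviations correlated at 0.23, -0.04 and 0.036 by number, and only number 1 matched best with itself. With a replicate block, 12 members were lower and 1 higher (14.4% and 14.1% of all genes), and with the correction as well 14 and 1 (10.9% and 14.4%). In the other lists the block gave 31 lower, and with the correction 68 higher and 32 lower. RPL17, RPL36A and RPS10 rest on at most 41 counts per library, which limits their fold changes.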
